A study of Mus musculus with 3 samples.

Results

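The MHC class II (MHCII) presentation genes were followed across the cell types of the mouse meninges. They are the 10 symbols H2-Aa, H2-Ab1, H2-Eb1, Cd74, H2-DMa, H2-DMb1, H2-DMb2, H2-Oa, H2-Ob and Ciita, taken by name from the 27998 genes in the count table, with no measured value in the rule. MHCII molecules carry peptides from engulfed material to the surface of professional antigen-presenting cells, where CD4+ T cells read them. H2-Aa and H2-Ab1 encode the α and β chains of I-A, H2-Eb1 encodes the β chain of I-E, and Cd74 encodes the invariant chain that occupies the groove until the molecule reaches the endosome. H2-DMa pairs with H2-DMb1 or H2-DMb2 in a chaperone that exchanges the invariant chain fragment for peptide, H2-Oa and H2-Ob form an inhibitor of that chaperone known from B cells, and Ciita encodes the transactivator that switches the whole group on. C57BL/6 mice carry a defect in the I-E α gene and show no I-E at the cell surface, although H2-Eb1 is transcribed; the I-E α gene was not analysed here.

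The libraries came from a single cell RNA sequencing (scRNAseq) study of meninges after chronic social defeat (CSD), a stress model in which a mouse is repeatedly defeated by an aggressor. Each of the 3 libraries was made from the pooled meninges of 4 male C57BL/6J mice aged 10 to 12 weeks: HC replicate 1 and HC replicate 2 from unstressed home cage (HC) mice, and CSD replicate 1 from mice that had 14 days of CSD and were classed as stress-susceptible from behavioural tests that included urine scent marking, social interaction and the open field. From all 3 pools, viable cells with a nucleus (DAPI- DRAQ5+ singlets) were collected by flow cytometry and captured on 1 chip of a droplet system that counts the 3′ ends of RNA molecules as unique molecular identifiers (UMIs). With 1 CSD pool, the effect of CSD and the particular pool cannot be told apart. The p-values of CSD against HC below rest on the spread between the HC pools. For differences between cell types the level of each library is taken out first. Those p-values rest on how far the contrast of the 2 types varies between the HC pools. No p-value covers the spread between CSD pools.

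The 3 libraries held 9891861, 8814690 and 10206236 UMIs, here and below in the order HC replicate 1, HC replicate 2 and CSD replicate 1. Barcodes with at least 500 UMIs, under 8.3% mitochondrial UMIs and a number of genes within the study's limits numbered 2599, 1702 and 2756, and 2552, 1677 and 2642 were left after doublet removal. Median UMIs per cell were 2472, 2203 and 2348. The HC libraries shared 8 barcode sequences, where the length of the barcode list gives 5.81 by chance, and CSD shared 5 with HC replicate 1 and 3 with HC replicate 2, where it gives 9.15 and 6.01. Clusters were built without the 10 genes, named from marker lists and called "-like"; 1 of 20 clusters stayed unnamed. The HC replicate 2 library stood apart in its free RNA, with 24.1% of its UMIs in barcodes of at most 100 UMIs against 7.87% and 5.48% in the others. Such barcodes mostly hold RNA set free from broken cells, and summed red cell haemoglobin transcripts in them stood at 5216, 14398 and 28433 CPM (counts scaled to 1000000 UMIs). Besides meningeal immune cells, the libraries held olfactory neuron-like cells (55, 38 and 66) and microglia-like cells (181, 92 and 89), which are not residents of the meninges.

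Positions on GRCm38 (mm10) were taken from the GENCODE annotation. The MHC on chromosome 17 holds 8 members, H2-Oa (chr17:34092340-34095234), H2-DMa (chr17:34119541-34139101), H2-DMb2 (chr17:34143307-34151555), H2-DMb1 (chr17:34153072-34160230), H2-Ob (chr17:34238903-34254414), H2-Ab1 (chr17:34257689-34269419), H2-Aa (chr17:34282744-34287823) and H2-Eb1 (chr17:34305867-34316674). Outside the MHC, Ciita lies on another chromosome (chr16:10480059-10528418), as does Cd74. In the last 500 bases of H2-DMb1, 20.4% of 50-base windows also occur in H2-DMb2, so a share of reads of this pair cannot be assigned with certainty. H2-DMa overlaps another gene model on its own strand.

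Transcription of these genes is known to rest on a short upstream module, the W/S, X and Y boxes, on which CIITA acts, and the Y box is the inverted CCAAT element ATTGG. The stretches from 130 to 21 bases before the start site are shown for 6 members (RefSeq, GRCm38.p6, 110 bases each, 5′ to 3′ on the gene's strand). These 6 were chosen because their stretches hold ATTGG. Capitals mark ATTGG on either strand and AACNNATGA, letters of the X box neighbourhood that were chosen after these sequences had been read.
H2-Aa (chr17:34287844-34287953, minus strand): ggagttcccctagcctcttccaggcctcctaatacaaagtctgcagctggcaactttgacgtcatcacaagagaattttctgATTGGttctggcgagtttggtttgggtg
H2-Eb1 (chr17:34305737-34305846, plus strand): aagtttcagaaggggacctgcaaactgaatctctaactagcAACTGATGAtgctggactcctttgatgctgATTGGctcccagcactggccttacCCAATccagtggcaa
H2-DMb1 (chr17:34153061-34153170, plus strand): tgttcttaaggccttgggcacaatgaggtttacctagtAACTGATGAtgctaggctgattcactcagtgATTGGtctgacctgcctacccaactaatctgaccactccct
H2-DMb2 (chr17:34145119-34145228, plus strand): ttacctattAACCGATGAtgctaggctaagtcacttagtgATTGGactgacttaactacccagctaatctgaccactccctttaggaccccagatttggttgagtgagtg
H2-Oa (chr17:34092249-34092358, plus strand): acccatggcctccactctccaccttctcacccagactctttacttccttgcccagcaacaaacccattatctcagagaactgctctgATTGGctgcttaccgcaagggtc
H2-Ob (chr17:34238775-34238884, plus strand): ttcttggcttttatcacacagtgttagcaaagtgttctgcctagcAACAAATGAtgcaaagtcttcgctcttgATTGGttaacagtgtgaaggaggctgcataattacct

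All 6 printed stretches hold ATTGG on the gene's strand, starting 43 to 90 bases before the start site, which follows from how they were chosen. The H2-Eb1 stretch holds it on the other strand too, from 35 to 31 bases before the start site. H2-Eb1, H2-DMb1, H2-DMb2 and H2-Ob also hold AACNNATGA further upstream. Over all 32851 promoters in the table, 20.3% held ATTGG in this stretch on either strand, 1.08% held AACNNATGA and 0.326% held both. Neither H2-DMa entry held either set of letters in this stretch. H2-Ab1, Cd74 and Ciita had no entry. A match of letters is a description and not a binding site.

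Border macrophage-like cells, conventional dendritic cell (cDC)-like cells and mature B-like cells carried the abundant MHCII genes, taken as a sum, above the other cell types in all 3 libraries. The 4 abundant genes H2-Aa, H2-Ab1, H2-Eb1 and Cd74, called the classical genes below, were summed as CPM of all UMIs of a cell type in a library. Their sum was 43828.5, 52791 and 45113 CPM in cDC-like cells (121, 47 and 46 cells), and 36089, 56314 and 50152 CPM in border macrophage-like cells (319, 57 and 126 cells). Levels in these 2 types overlapped over the libraries, and the CSD library lay between the HC libraries in both. Mature B-like cells (195, 184 and 154 cells) held 23830, 26408 and 25612 CPM. Their 3 libraries lay close together, below every cDC-like and above every plasmacytoid dendritic cell (pDC)-like value.

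Below these, pDC-like cells held 10114, 9016 and 6554 CPM, from 20, 14 and 24 cells. Monocyte-like cells held 13919, 5883 and 3707 CPM, and the HC libraries differed from each other more than HC replicate 2 differed from CSD. Pre-B- and immature B-like cells, at an early stage of the B lineage, held 3699, 3603 and 1928 CPM. From the pDC-like cells downward every pair of neighbours in the order of levels overlapped over the libraries. The 6 types neutrophil-like, preneutrophil-like, myeloid progenitor-like, T- and NK-like, fibroblast-like and olfactory neuron-like, which are not known as constitutive antigen-presenting cells, spanned 2487 to 3372 CPM in HC replicate 1, 2381 to 3174 CPM in HC replicate 2 and 891 to 1496 CPM in CSD. The ranges of the HC libraries overlapped, and the CSD range lay wholly below both.

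**Figure D1:**
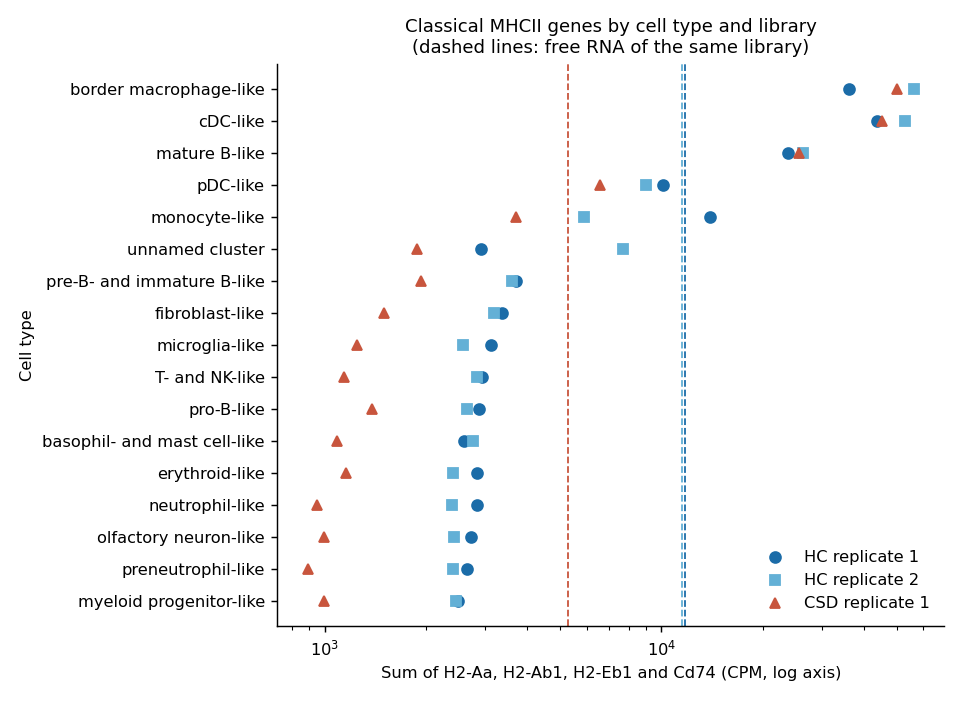
Sum of H2-Aa, H2-Ab1, H2-Eb1 and Cd74 in CPM (log axis) for each cell type, with 1 point per library and dashed lines for barcodes of at most 100 UMIs of the same library. The 3 types that stand wholly to the right of the dashed lines are cDC-like (43828.5 to 52791 CPM), border macrophage-like and mature B-like cells, and the types at the bottom stand at a common low level per library that is lower in CSD.

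A small number of cells held most of the MHCII RNA. cDC-like cells were 4.74%, 2.80% and 1.74% of cells and held 30.6%, 29.3% and 25.9% of all classical MHCII UMIs in cells. Border macrophage-like cells held 34.5%, 22.6% and 35.2% of these UMIs as 12.5%, 3.40% and 4.77% of cells, and mature B-like cells held 7.51%, 18.4% and 12.8% as 7.64%, 10.97% and 5.83% of cells. The CSD library had the smallest share of cDC-like and of mature B-like cells. Over all cells of a library, the 10 members together made up 12642, 9746 and 5274 CPM. That level was lowest in CSD, where each of these presenting types was also a smaller share of the cells than in HC replicate 1. Against HC replicate 2, the CSD shares of cDC-like and mature B-like cells were smaller and that of border macrophage-like cells was larger.

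Within the presenting types the classical genes had different proportions. Cd74 (chr18:60803848-60812652), whose protein also serves in a receptor on B cells, exceeded H2-Ab1 by a ratio of UMIs of 3.5, 3.564 and 3.546 in mature B-like cells, 2.08, 2.10 and 2.04 in cDC-like cells and 2.32, 2.21 and 2.15 in border macrophage-like cells. The ratio was near constant over the libraries in each of these types, and the B-like values lay above those of cDC-like and border macrophage-like cells. In pDC-like cells it was 2.85, 2.67 and 3.62, with the CSD value above the B-like values. In neutrophil-like cells the ratio was 0.929, 0.9749 and 0.935, and in barcodes of at most 100 UMIs 1.49, 2.04 and 1.52. In neutrophil-like cells it lay under that of free RNA and of each presenting type, which was not particular to them. The ratio was 0.978, 1.12 and 1.02 in preneutrophil-like, 0.998, 1.08 and 0.891 in myeloid progenitor-like and 0.964, 1.07 and 1.03 in olfactory neuron-like cells. T- and NK-like cells had 1.22, 1.19 and 1.40. Fibroblast-like cells had 1.20, 1.26 and 2.21, above free RNA in CSD. Because 3′ counting scores each captured molecule once, such ratios compare numbers of molecules captured and are not divided by gene length.

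The α and β chain genes showed the same order of types. H2-Aa stood at 9043, 10442 and 9542 CPM in cDC-like cells, 6934, 10304 and 9564 CPM in border macrophage-like cells and 3663, 3992 and 4145 CPM in mature B-like cells. cDC-like and border macrophage-like values overlapped, and mature B-like values lay below both. H2-Ab1 stood at 9218, 11284 and 9735 CPM in cDC-like cells against 3958, 4332 and 4213 CPM in mature B-like cells. H2-Eb1, whose protein has no partner at the surface in this strain, was still counted at 6426, 7413 and 5945 CPM in cDC-like cells and at 2357, 2645 and 2315 CPM in mature B-like cells. H2-Eb2, a neighbouring β chain gene that is no member, gave 9, 8 and 8 UMIs in mature B-like cells and 2, 0 and 0 UMIs in cDC-like cells.

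A separate clustering at Leiden resolution 2 gave more than 1 cluster each of cDC-like and mature B-like cells, and its clusters do not hold exactly the cells of the types above. Of the cDC-like clusters, one with Cd209a, a lectin of type 2 cDC, held 100, 42 and 32 cells, and one with Xcr1, the chemokine receptor of type 1 cDC, held 22, 5 and 14. Cd74 stood at 20124, 24036 and 20825 CPM in the Cd209a cluster and 15375, 21389 and 17841 CPM in the Xcr1 cluster, higher in the former in each library although the ranges overlapped. One mature B-like cluster had H2-Aa at 4513, 4731 and 4863 CPM (138, 140 and 121 cells) and another had 1486, 1728 and 1349 CPM (58, 43 and 37 cells). H2-Aa did not overlap between these B-like clusters. Cd74 did overlap, at 13982, 15522 and 15256 CPM against 13360, 15326 and 13212 CPM.

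The peptide-loading chaperone genes split by type. H2-DMa stood at 1188, 1248 and 1258 CPM in cDC-like cells, 671, 848 and 964 CPM in border macrophage-like cells and 541, 654 and 652 CPM in mature B-like cells. The cDC-like values lay above both other types without overlap. H2-DMb1 stood at 648, 738 and 806 CPM in cDC-like cells and 119, 169 and 177 CPM in mature B-like cells. H2-DMb2 had the opposite order, with 620, 792 and 634 CPM in mature B-like cells, 170, 274 and 185 CPM in cDC-like cells and 48.1, 85.4 and 16.1 CPM in border macrophage-like cells. Neither of the β chain genes overlapped between mature B-like and cDC-like cells, within the limit on assigning reads of this pair.

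The H2-O genes had their highest levels in mature B-like cells. H2-Oa stood there at 270, 282 and 272 CPM against 182, 216 and 149 CPM in cDC-like cells. H2-Ob, the other chain of the inhibitor, stood at 295, 292 and 263 CPM in mature B-like cells and 82.2, 54.1 and 78.6 CPM in cDC-like cells. In border macrophage-like cells H2-Oa was at 29.0, 37.4 and 19.3 CPM and H2-Ob at 26.0, 16.01 and 16.1 CPM. The mature B-like values of both genes lay above all others in each library, and border macrophage-like cells, with classical levels as high as cDC-like cells, lay far below both. Outside the lymphoid and dendritic types, basophil- and mast cell-like cells gave H2-Oa at 130, 208 and 117 CPM, from only 8, 7 and 9 UMIs.

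Ciita, the transactivator, was the rarest member with 243 UMIs over all barcodes. It stood at 65.8, 65.7 and 59.0 CPM in cDC-like cells, 17.0, 10.7 and 19.3 CPM in border macrophage-like cells and 9.11, 39.9 and 63.4 CPM in mature B-like cells. The cDC-like values were the steadiest, and the mature B-like values rested on 3, 13 and 14 UMIs. In neutrophil-like cells 1, 3 and 4 UMIs were counted.

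**Figure D2:**
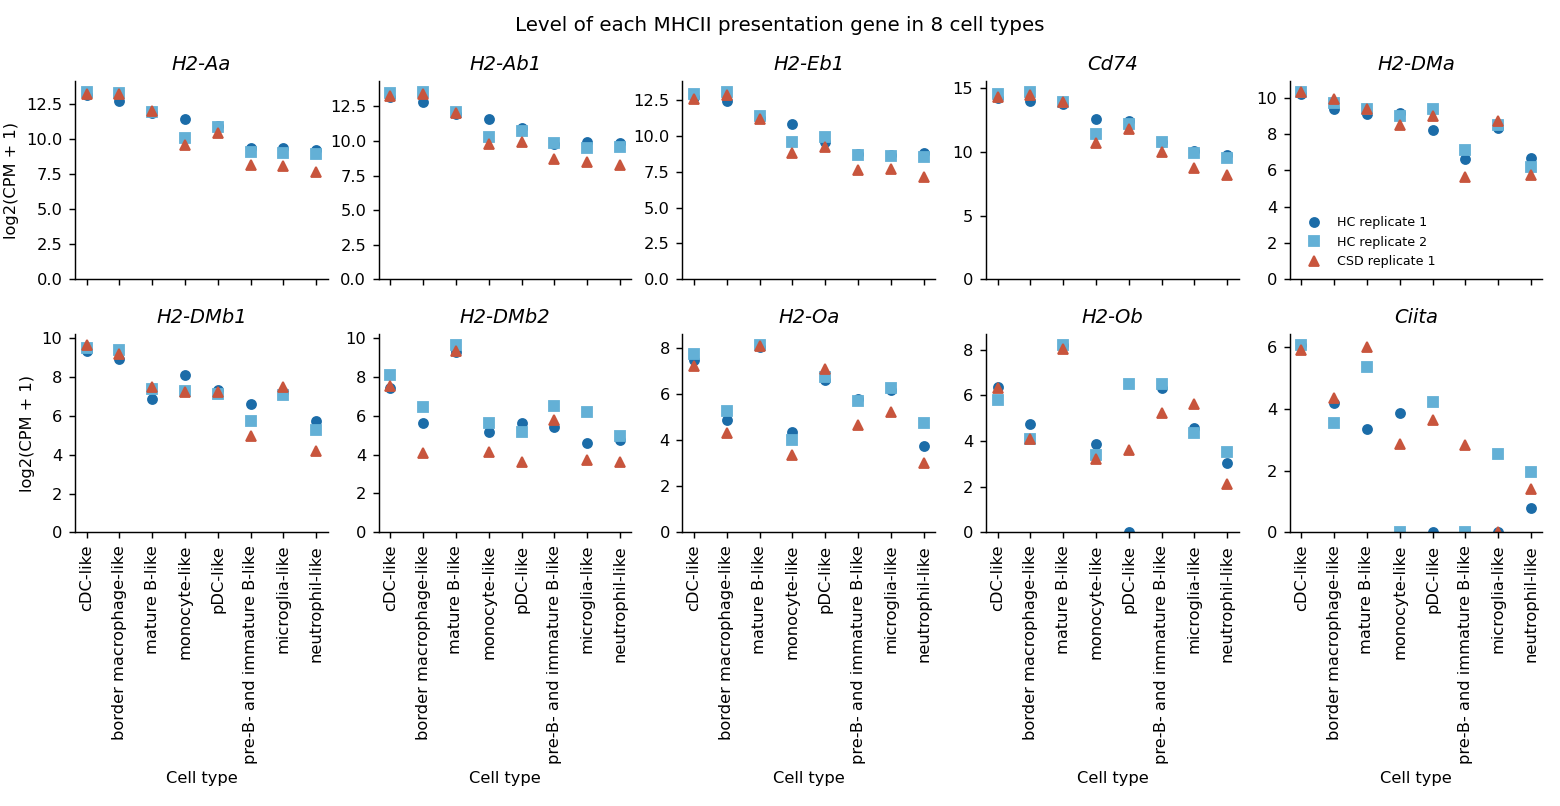
Level of each of the 10 genes as log2(CPM + 1) in 8 cell types, 1 point per library. H2-DMb2, H2-Oa and H2-Ob peak in mature B-like cells (H2-Ob 295, 292 and 263 CPM), while the others have their highest mean in cDC-like or border macrophage-like cells.

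Single cells showed whether a low level came from all cells or from a few. After thinning each cell to 500 UMIs, which left no cell out, 95.9%, 91.5% and 97.8% of cDC-like cells and 89.2%, 95.7% and 91.6% of mature B-like cells held 5 or more classical UMIs. In neutrophil-like cells, which are not known as constitutive presenting cells, the share was 0.738%, 1.64% and 0 of 1085 cells, the last allowing up to 0.277% (3 counts of the total). Without thinning the neutrophil-like shares were 52.1%, 43.7% and 10.7%, and those of cDC-like cells 100%, 95.7% and 100%. Thinned shares kept the types farther apart than unthinned shares.

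Border macrophage-like cells were mixed. After thinning, 63.3%, 89.5% and 83.3% held 5 or more classical UMIs, and 117 of 319 cells in HC replicate 1 held fewer. In that library 111 cells held 20 to 39 UMIs and 37 held 1. Cells low and cells high in MHCII were present in all libraries, with the low cells most common in HC replicate 1.

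Monocyte-like cells were mixed as well, with a small high fraction. Cells with 5 or more classical UMIs after thinning made up 27.3% (exact binomial 95% interval 20.4 to 35.0%), 14.4% (8.303 to 22.7%) and 7.10% (3.60 to 12.3%). Without thinning these shares were 94.2%, 92.3% and 63.9%. The thinned share fell in the order of the libraries, the intervals of neighbours overlapped, and that of HC replicate 1 lay above that of CSD. Intervals cover counting error only.

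**Figure D3:**
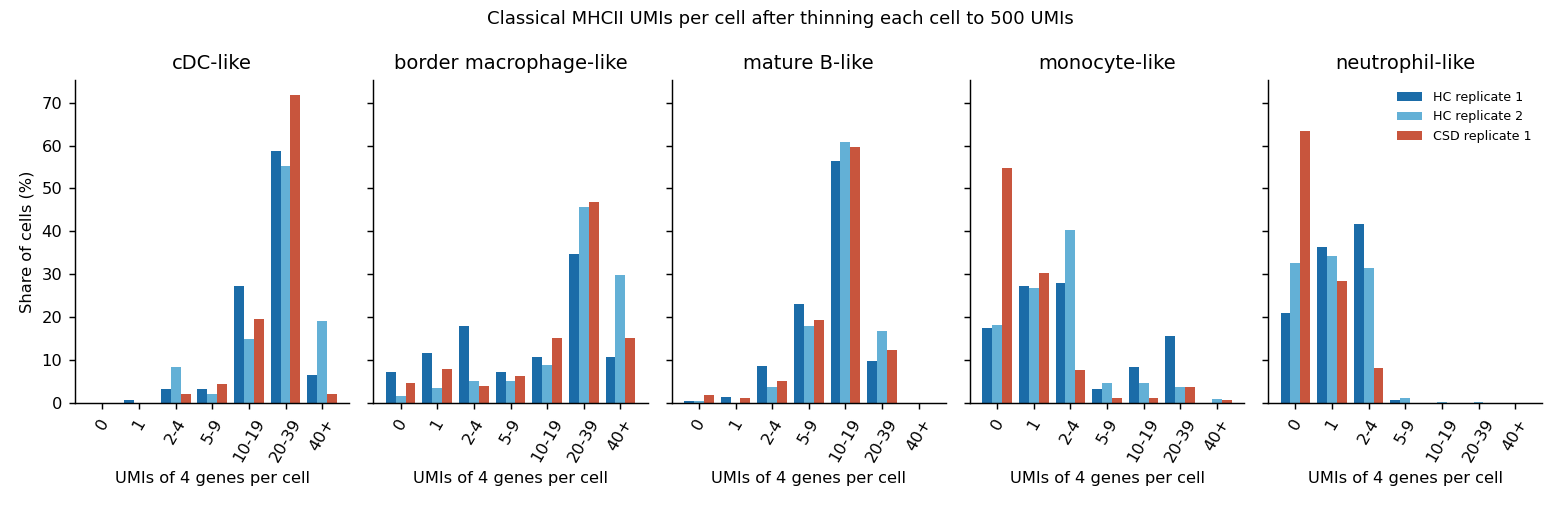
Share of cells (%) by the number of classical MHCII UMIs per cell after thinning to 500 UMIs, for 5 cell types and 3 libraries. cDC-like and mature B-like cells lie to the right, neutrophil-like cells at the left, and border macrophage-like and monocyte-like cells at both ends.

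The question of the low MHCII level in cells that do not present antigen was taken to the free RNA of each library. In barcodes of at most 100 UMIs the classical sum was 11724, 11552 and 5288 CPM, from 9125, 24584 and 2958 UMIs. The CSD value lay below both HC values, which were close to each other. By gene, H2-Aa stood at 2516, 2113 and 1126 CPM and Cd74 at 4465, 5222 and 2036 CPM. In neutrophil-like cells the sum was 0.242, 0.206 and 0.180 of that of free RNA, whereas T- and NK-like cells held 0.251, 0.245 and 0.216 of it. Transcripts which belong to other cells were set beside these fractions: the median ratio of 18 genes of B cells, macrophages, fibroblasts, red cells and neurons was 0.284, 0.256 and 0.175 in neutrophil-like cells and, for T- and NK-like cells, 0.260, 0.260 and 0.188. Single genes varied around these values. In neutrophil-like cells Cd74 stood at 0.193, 0.143 and 0.144 and H2-Ab1 at 0.310, 0.300 and 0.234 of free RNA, and the 18 genes of other cells spanned 0.0577 to 0.405 over the libraries. How much of the classical level in these types came from free RNA was not tested.

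The presenting types stood above free RNA. The classical sum was 3.74, 4.57 and 8.53 times that of free RNA in cDC-like cells, 3.08, 4.88 and 9.48 times in border macrophage-like cells and 2.03, 2.29 and 4.84 times in mature B-like cells. The ratio was highest in CSD in each of the 3 types, in the library with the lowest free RNA level. Genes of other cells had a median ratio of 0.292, 0.254 and 0.191 in cDC-like cells, as in neutrophil-like cells. In pre-B- and immature B-like cells the classical sum was 0.316, 0.312 and 0.365 of free RNA, above the median of other genes there (0.248, 0.240 and 0.167) in each library. In fibroblast-like cells it was 0.288, 0.275 and 0.283 against 0.300, 0.258 and 0.175, above the other genes mainly in CSD, where 23 cells were counted.

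Microglia-like cells differed between the 2 sets of MHCII genes. Their classical sum was 0.267, 0.223 and 0.235 of free RNA, against 0.309, 0.265 and 0.198 for genes of other cells. H2-DMa in the same cells stood at 321, 367 and 413 CPM, or 0.956, 1.18 and 1.78 times free RNA, and H2-DMb1 at 150, 135 and 182 CPM, or 0.745, 0.816 and 1.64 times. Both chaperone genes stood above the ratio of other genes in every library, while the classical sum stayed near it. Myeloid progenitor-like cells also held H2-DMa, at 263, 335 and 245 CPM against 102, 73.3 and 51.8 CPM in neutrophil-like cells.

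**Figure D4:**
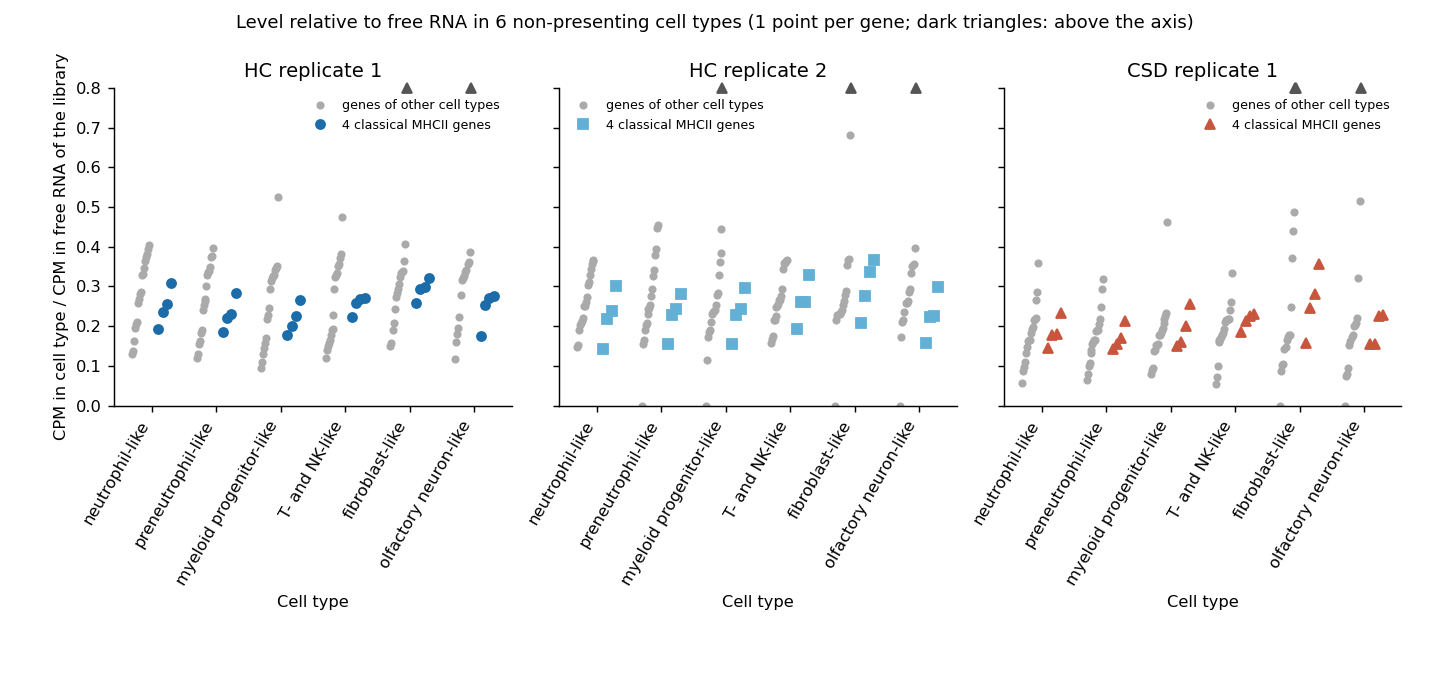
CPM in a cell type divided by CPM in free RNA of the same library for 6 non-presenting types, with 1 point per gene: grey points are genes of other cell types, coloured points the 4 classical genes, and dark triangles mark 8 points above the axis limit of 0.8. The coloured points lie among the grey points, for example near 0.242 in neutrophil-like cells of HC replicate 1.

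CSD was then compared with HC in each cell type with at least 20 cells per library, by edgeR's quasi-likelihood test on UMIs summed per library, with adjustment over all genes seen in more than 15% of cells. Changes are log2(CSD/HC) with their standard errors. In the presenting types no member passed the test. In cDC-like cells the 10 members spanned -0.38 to 0.24, with Cd74 at -0.08 ± 0.18 (95% interval -0.44 to 0.27) and H2-Ab1 at -0.05 ± 0.19 (-0.44 to 0.33). None of the 10 members was called, against 0.127% of 3141 genes tested. In mature B-like cells the 9 members tested spanned -0.14 to 0.32, with Cd74 at 0.04 ± 0.13 (-0.29 to 0.38). None was called, where 0% of 1162 genes were.

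In border macrophage-like cells the 6 members tested spanned 0.04 to 0.37, with H2-Aa at 0.16 ± 0.28 (-0.38 to 0.70). None was called, against 0.305% of 1970 genes. The sign there depended on the HC library: without HC replicate 1 the 4 classical changes turned negative, down to -0.19, and without HC replicate 2 they reached 0.57. No member of these 3 types reached an unadjusted p under 0.05 in edgeR, and none was called by DESeq2. Of all genes tested, 152 in cDC-like, 79 in border macrophage-like and 41 in mature B-like cells reached that p.

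In neutrophil-like cells all 4 members that could be tested were lower in CSD. H2-Aa stood at 596, 503 and 202 CPM, H2-Ab1 at 929, 768 and 314 CPM, H2-Eb1 at 445, 361 and 140 CPM and Cd74 at 863, 749 and 294 CPM. CSD lay below both HC libraries for each gene. How many of the 1079 genes tested had the same order is not given here, so that order alone is no result. H2-Aa fell by 1.39 ± 0.21, H2-Ab1 by 1.38 ± 0.21, H2-Eb1 by 1.48 ± 0.21 and Cd74 by 1.41 ± 0.20 on the log2 scale, with adjusted p of 0.00164 to 0.00175. All 4 members were called, against 2.41% of 1079 genes, with a median change of -0.0091 over all of those. DESeq2 called the 4 as well, among 14 of 786 genes. Subtracting the free RNA profile ended the 4 calls. Of the 3 members then tested, H2-Ab1 alone kept 20 UMIs or more in HC, and its change did not turn sign. The median change of 4.97 over the 3 rested on sums with fewer UMIs and gives no direction. The 4 calls were also lost when doublets were kept, with 1000 UMIs or 5% mitochondrial share as the limit, and with other clusterings. Nearly all calls over all genes were lost in those settings too, so the loss was not particular to the members. Over all alternatives other than subtraction the changes stayed between -1.20 and -1.65, bounds that were reached when an HC library was left out. Beside this, free RNA of the CSD library held 5288 CPM of the classical genes against 11724 and 11552, and its part in the fall was not tested.

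Other non-presenting types showed falls of like size, with as many members called in olfactory neuron-like cells and fewer in the rest. In olfactory neuron-like cells H2-Aa fell by 1.23 (adjusted p = 0.00785), H2-Ab1 by 1.39 (6.3e-04), H2-Eb1 by 1.76 (3.0e-04) and Cd74 by 1.36 (6.6e-04) on the log2 scale. Of 6 members tested there 4 were called, against 0.410% of 3900 genes, and none with DESeq2 or after subtraction of free RNA, which gave a median change of 0.33. DESeq2 called no gene at all there. Outside subtraction, H2-Ab1, H2-Eb1 and Cd74 were called there in 7 of 8 alternatives and H2-Aa in 5 of 8. In neutrophil-like cells each of the 4 was called in 3 of 8. In myeloid progenitor-like cells H2-Eb1 fell by 1.63 (adjusted p = 0.00772) and Cd74 by 1.40 (0.0198). These 2 of 8 members were called, against 0.319% of 5330 genes, and none with DESeq2, after subtraction of free RNA or without the correction between libraries. DESeq2 and leaving out that correction also ended nearly all calls over all genes. In these cells H2-DMa was at -0.28 ± 0.26 and H2-DMb1 at -0.01 ± 0.29, values that did not pass the test.

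In preneutrophil-like cells the 4 classical genes were at -1.38 to -1.62, and none of 6 members was called (adjusted p = 0.146 to 0.921; 0.0381% of 2626 genes called). All 6 had an unadjusted p under 0.05, as had 118 of the genes tested. DESeq2 called 2 of the members, among 6 of 2626 genes. In T- and NK-like cells the classical genes were at -1.23 to -1.64, and none of 5 members was called by edgeR or DESeq2 (0% of 1576 genes called). All 5 had an unadjusted p under 0.05, as had 50 of the genes tested. In fibroblast-like cells, 23 of them in CSD, the classical genes were at -0.57 to -1.93, with none of 6 members called (0.0670% of 2984 genes called). All 6 had an unadjusted p under 0.05 there, as had 208 of the genes tested.

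Lymphoid precursors and the remaining myeloid types gave values of the same sign. In pre-B- and immature B-like cells the classical genes were at -0.76 to -1.09, with none of 4 members called (0.0723% of 1384 genes). These 4 had an unadjusted p under 0.05, as had 47 of the genes tested. In pro-B-like cells they were at -0.84 to -1.21, with none of 5 called (0% of 3128 genes, 140 at an unadjusted p under 0.05), among them 4 members at an unadjusted p under 0.05. In microglia-like cells they were at -0.995 to -1.29, while H2-DMa was at 0.27 ± 0.24 and H2-DMb1 at 0.33 ± 0.29. None of these 6 members was called (0% of 1742 genes, 56 at an unadjusted p under 0.05), 4 of them having an unadjusted p under 0.05.

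In monocyte-like cells the classical genes were at -1.37 to -1.52 with standard errors of 0.58 to 0.65, and none of 6 members was called (0% of 3312 genes, 291 at an unadjusted p under 0.05, of which 1 was a member). The HC libraries decided the size: without HC replicate 1 the 4 changes lay between -0.52 and -0.75, and without HC replicate 2 between -1.90 and -2.03. In barcodes of at most 100 UMIs, H2-Aa was at -0.93 ± 0.26, H2-Ab1 at -0.94 ± 0.26, H2-Eb1 at -1.02 ± 0.25 and Cd74 at -1.15 ± 0.26. None of 9 members passed the test there (adjusted p = 0.320 or more, 0.0176% of 5677 genes called). Of these members 6 had an unadjusted p under 0.05, as had 313 of the genes tested. By DESeq2, the members called over all 14 populations were the 4 in neutrophil-like cells (14 of 786 genes called) and 2 in preneutrophil-like cells (6 of 2626).

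**Figure D5:**
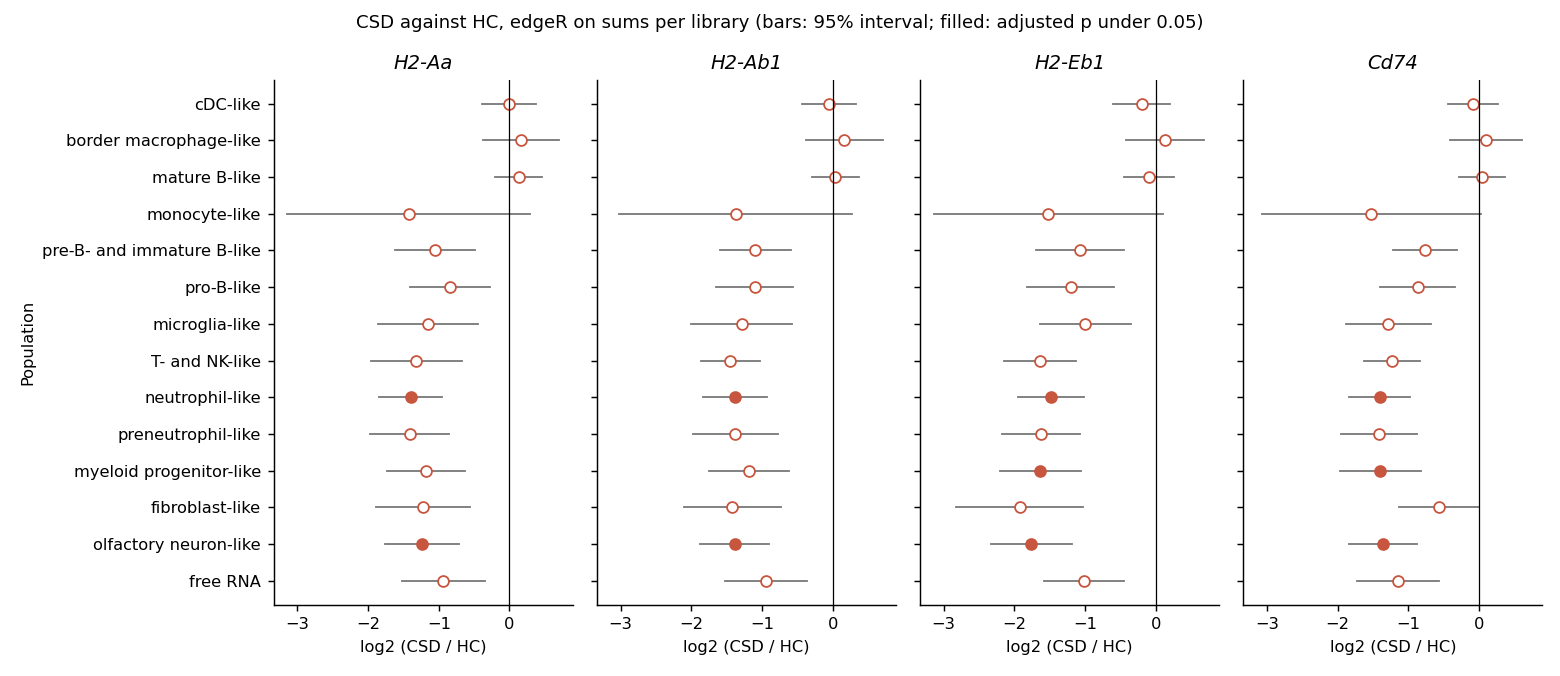
log2(CSD/HC) of the 4 classical genes in 13 cell types and in free RNA, with 95% intervals and filled points for an adjusted p under 0.05 (edgeR). Points of cDC-like, border macrophage-like and mature B-like cells straddle 0 (Cd74 -0.08 in cDC-like cells), and all others lie below it (Cd74 -1.41 in neutrophil-like cells).

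Differences between cell types in this change were tested directly, on the 6 sums of a pair of types with the library as a block. The change was higher in mature B-like than in neutrophil-like cells by 1.45 for H2-Aa (adjusted p = 8.1e-24), 1.35 for H2-Ab1, 1.31 for H2-Eb1 and 1.38 for Cd74 on the log2 scale. H2-DMa differed by 0.80 (adjusted p = 0.0331) and H2-DMb1 by 1.58 (0.00396). Both depended on the processing: each was called in 4 of 6 alternatives, with an adjusted p of up to 0.336 and 0.175, and without HC replicate 1 they were 0.37 and 1.00. Of 9 members 6 were called, against 6.25% of 1487 genes, and the 4 classical genes passed under all 7 alternatives run, the largest adjusted p being 0.00371. DESeq2 gave an adjusted p for 161 genes only and called 40 of them, among them all 4 members that had one.

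Between cDC-like and neutrophil-like cells the change differed by 1.28 for H2-Aa, 1.22 for H2-Ab1, 1.18 for H2-Eb1, 1.22 for Cd74 and 1.48 for H2-DMb1. Of 10 members 5 were called, against 0.467% of 3212 genes. DESeq2, keeping doublets, or leaving out the correction between libraries ended these calls and nearly all calls over all genes. Between border macrophage-like and neutrophil-like cells the 6 members tested differed by 1.07 to 1.59, all called, against 2.45% of 2126 genes. DESeq2 or stricter limits on cells ended these calls and nearly all calls over all genes. The HC libraries moved these values: without HC replicate 1 H2-DMa was at 0.48, H2-DMb1 at 0.67 and the classical genes at 0.93 to 1.01, and without HC replicate 2 the classical genes were at 1.87 to 1.98. These 3 comparisons share the neutrophil-like sums and are not independent. Their p-values rest on a spread shared over genes.

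Neutrophil-like cells were also set against populations that carry free RNA. Against T- and NK-like cells the change differed by 0.04 for H2-Aa (95% interval -0.33 to 0.41), 0.17 for H2-Ab1 (-0.16 to 0.51), 0.27 for H2-Eb1 (-0.18 to 0.72) and -0.06 for Cd74 (-0.37 to 0.25). None of 5 members was called, against 2.11% of 1803 genes. Against barcodes of at most 100 UMIs it differed by -0.43 for H2-Aa (-0.82 to -0.04) and -0.23 for Cd74 (-0.76 to 0.29). None of 4 members was called, against 0.185% of 1079 genes, and 3 had an unadjusted p under 0.05, as had 95 of the genes tested. DESeq2 called no member in either comparison.

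Other genes of the presentation pathway were followed from a list of 32, covering transcription factors of MHCII genes, interferon gamma response and lineage factors, lysosomal processing, turnover and co-stimulation. Over the 13 cell types, 183 tests of these genes gave 2 calls, both lower in CSD. Ctss, the cathepsin that trims the invariant chain, stood at 289, 256 and 113 CPM in neutrophil-like cells and fell by 1.22 ± 0.18 on the log2 scale (adjusted p = 0.00175). CSD lay below both HC libraries there, and the call was lost under the alternatives that ended those of the members. Ctss in free RNA was at 1070, 962 and 611 CPM, and in border macrophage-like cells, its highest type among 6 compared, at 2729, 3991 and 4088 CPM.

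Cst3, a secreted inhibitor of cathepsins that marks cDC, fell by 1.02 ± 0.23 in olfactory neuron-like cells (adjusted p = 0.0176). In free RNA Cst3 stood at 5395, 4234 and 2632 CPM, and in cDC-like cells at 8390, 10515 and 10993 CPM. CSD was the lowest library in free RNA and the highest in cDC-like cells. The change differed from that in neutrophil-like cells for Ctss in mature B-like (1.15) and border macrophage-like cells (1.495), for Ifi30, the lysosomal thiol reductase, in border macrophage-like cells (1.16), and for Cst3 (0.73) and Ctsd, an aspartic protease (-1.14), in cDC-like cells. Against T- and NK-like cells, neutrophil-like cells differed for Cst3 (0.55) and for Spi1, the PU.1 factor of myeloid and B cells (1.00). All 7 of these differences had an adjusted p of at most 0.0467. DESeq2 called none of the 32 genes in these 4 comparisons, and of the alternatives only resolution 2 gave a call (1) between neutrophil-like and T- and NK-like cells. Calls were also lost for cDC-like cells with doublets kept, and for cDC-like and mature B-like cells without correction between libraries. For border macrophage-like cells they were lost under stricter limits on cells. The Cst3 call in olfactory neuron-like cells was lost with DESeq2, after subtraction of free RNA and with doublets kept.

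The genes whose level followed the classical sum most closely over 17 cell types were ranked by Pearson correlation of log2(CPM + 10), summed over libraries, among 9203 genes. The 8 highest that are no members were Mgl2 (0.818), Cd83 (0.811), Slamf9 (0.793), Eps15 (0.784), Ryr1 (0.783), Nostrin (0.762), AI607873 (0.759) and Rab7b (0.749). Mgl2, a lectin of dendritic cells and macrophages, stood at 466 CPM in cDC-like, 266 in border macrophage-like, 13.7 in mature B-like and 13.3 in neutrophil-like cells. Cd83, which slows the turnover of MHCII at the surface, stood at 78.8, 98.8, 128 and 5.402 CPM in the same order of types, high in all 3 presenting types. Among the members outside the classical sum the same measure was 0.907 for Ciita, 0.887 for H2-DMa and 0.880 for H2-DMb1, and 0.696, 0.630 and 0.572 for H2-DMb2, H2-Ob and H2-Oa. The 17 points share 3 libraries and their free RNA, so these values describe likeness only.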

How the data were processed

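Meninges of 3 pools of 4 mice were sequenced, and the authors deposited 1 matrix of UMI counts per gene and barcode, made with Cell Ranger 2 on build mm10 per the submitters' processing notes. It holds 27998 genes and 2211840 barcodes with no cell calling. The sources used here do not give the annotation used for counting. The number ending each barcode was matched to the library and chip lane numbers in the labels.

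Cells were barcodes with at least 500 UMIs, 174 to 4548 genes and under 8.3% mitochondrial UMIs, less doublets marked by Scrublet (1.81%, 1.47% and 4.14%; in CSD the automatic limit marked 0.145%, so cells scoring above the bound of its top 5.1% were removed instead). Leiden clustering at resolution 1 (scanpy 1.11.5; 3000 variable genes, 50 components, mutual-nearest-neighbour correction) left out the 10 members, and clusters were named from marker lists. UMIs were summed per cell type and library. The sums were tested with edgeR 4.0.16 (quasi-likelihood, TMM, two-sided, Benjamini-Hochberg over all genes tested, threshold 0.05), with DESeq2 1.42.0 as an alternative. The 3 libraries leave 1 residual degree of freedom, so each test rests on a spread shared over genes. Genes had to be seen in more than 15% of a type's cells, or of the cells of either type where 2 types were compared. In free RNA at least 50 UMIs were needed. The script was tested on simulated data. The study's own test over cells was not used, since cells are not replicates. Intervals and floors (3 counts, 95%) cover counting error only.

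All 10 members are named, with pathway genes past the threshold and the 8 genes most like the classical sum (at least 100 UMIs). The members and lists were chosen with earlier results of these data known.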

Additional observations from a re-analysis of the deposited data

Results flagged for a closer look

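The change between CSD and HC differed between presenting and neutrophil-like cells for 17 pairs of gene and type, by the interaction term of edgeR's quasi-likelihood test (adjusted p of at most 0.0331 for each). For cDC-like minus neutrophil-like cells the log2 differences were 1.28 for H2-Aa, 1.22 for H2-Ab1, 1.18 for H2-Eb1, 1.22 for Cd74 and 1.48 for H2-DMb1. For mature B-like cells they were 1.45 for H2-Aa, 1.35 for H2-Ab1, 1.31 for H2-Eb1, 1.38 for Cd74, 0.80 for H2-DMa and 1.58 for H2-DMb1. For border macrophage-like cells they were 1.53 for H2-Aa, 1.54 for H2-Ab1, 1.59 for H2-Eb1, 1.49 for Cd74, 1.07 for H2-DMa and 1.38 for H2-DMb1. Each value is the change in the presenting type less that in neutrophil-like cells, and it was positive in every case. All 3 comparisons share the same neutrophil-like sums and the single CSD pool. The classical genes of free RNA moved with them, at 11724, 11552 and 5288 CPM, and the part of free RNA in these differences was not tested.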

How the results depend on the processing

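No paired analysis was possible because HC and CSD share only replicate number 1. The CSD pool is single, so leaving it out leaves nothing to compare. Depth limited Ciita, H2-Oa and H2-Ob outside the presenting types, and 17 sums had under 20 UMIs left in HC after subtraction of the free RNA profile and gave no value. Of 772 alternative values of the members' log2 changes, 634 counted as unchanged. For values with an adjusted p this meant the same direction and side of the threshold. Values without one, such as those with an HC library left out, had to lie within the spread of the leave-one-out values. Where the member was not called, the sign of such a value could still turn. Over the alternatives other than subtraction, the classical changes in neutrophil-like cells ran from -1.20 to -1.65 (adjusted p = 4.6e-08 to 0.334).

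The number of members called in neutrophil-like cells, 4 as reported, was 0 after subtraction, with doublets kept, with at least 1000 UMIs, with mitochondrial share under 5%, without correction between libraries and at Leiden resolution 2. In preneutrophil-like cells, 0 as reported, it was 2 with DESeq2, 1 with no filter on the share of cells, 3 with doublets kept, 5 with at least 1000 UMIs and 5 without correction. In myeloid progenitor-like cells, 2 as reported, it was 0 with DESeq2, after subtraction and without correction, and 5 with no filter, with doublets kept or with mitochondrial share under 5%. In olfactory neuron-like cells, 4 as reported, it was 0 with DESeq2 and after subtraction. In fibroblast-like cells, 0 as reported, it was 1, higher in CSD, after subtraction, and 4 with doublets kept and 3 with mitochondrial share under 5%, all lower in CSD. It was 1 with no filter in pre-B- and immature B-like cells and 2 without correction in pro-B-like cells, both 0 as reported. For the difference between cDC-like and neutrophil-like cells it was 0 with DESeq2, doublets kept or no correction, and for border macrophage-like cells 0 with DESeq2, at least 1000 UMIs or mitochondrial share under 5%. In nearly all of these settings the calls over all genes fell or rose along with those of the members. The exceptions were myeloid progenitor-like and olfactory neuron-like cells after subtraction, where more genes were called in all than as reported. The cause was not tested.

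Some changes near 0 turned sign. In cDC-like cells H2-Aa became 0.018 with no filter, 0.11 with at least 1000 UMIs, 0.036 with mitochondrial share under 5% and 0.0066 without correction, and with at least 1000 UMIs H2-Ab1 became 0.0021 and Cd74 0.032. H2-Ab1 in mature B-like cells became -0.011 with doublets kept. Subtraction gave Cd74 -0.0072 in border macrophage-like and -0.011 in mature B-like cells. It also turned larger falls: Cd74 from -0.76 to 0.18 in pre-B- and immature B-like, H2-Aa from -0.84 to 1.30 in pro-B-like and from -1.22 to 0.17 in fibroblast-like, and H2-Ab1 from -1.29 to 0.71 in microglia-like and from -1.18 to 0.61 in myeloid progenitor-like cells. The median change of the members tested after subtraction, some with few UMIs, was 4.97 against -1.40 as reported in neutrophil-like, 1.65 against -1.41 in preneutrophil-like, 0.33 against -1.30 in olfactory neuron-like and 0.52 against -1.32 in T- and NK-like cells. For neutrophil-like less T- and NK-like cells H2-Aa became -0.0073 with no filter, -0.17 with doublets kept, -0.083 with at least 1000 UMIs and -0.028 with mitochondrial share under 5%, with doublets kept H2-Ab1 became -0.065 and H2-Eb1 -0.11, and Cd74 became 0.13 at resolution 2. For neutrophil-like cells less free RNA Cd74 became 0.017 with no filter. The cause was not tested.

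The mean classical level moved to 6612.5 (doublets kept) or 3863 CPM (no correction) in pDC-like cells, and with at least 1000 UMIs to 27347 CPM in mature B-like and 5140 CPM in pre-B- and immature B-like cells. With doublets kept the ratio to free RNA became 0.242 in preneutrophil-like and 0.329 in fibroblast-like cells. Calls over all genes varied more than 1.5 times in every comparison, for example from 0 to 179 in neutrophil-like cells (26 as reported), 0 to 18 in cDC-like (4), 1 to 19 in border macrophage-like (6), 0 to 43 in preneutrophil-like (1), 1 to 44 in myeloid progenitor-like (17), 0 to 29 in olfactory neuron-like (16) and 0 to 30 in monocyte-like cells (0).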
